A study of Mus musculus with 32 samples.

Results

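Liver transcripts of mice given metformin (MET, 4 arrays) were set directly against those of mice whose calories were restricted for 8 weeks (CR8, 4 arrays), without use of the control arrays. These 8 arrays are part of a series of 32, with 4 arrays in each of 8 groups, made to compare candidate mimetics of calorie restriction with restriction itself. All were male mice of the B6C3F1 hybrid strain, housed singly from 5 months of age on 93 kcal per week of a purified control diet. From 20 months the MET mice received control diet with metformin mixed into the pellets for 8 weeks; the dose and the weekly ration of this group were not used here. From the same age the CR8 mice received 77 kcal per week of a restriction diet for 2 weeks and then 52.2 kcal per week for 6 weeks. That diet was enriched, so that intake of protein, vitamins and minerals per body weight stayed near that of controls, and the 2 groups therefore differed in food composition as well as in drug and calories. Mice of both groups were fasted for 48 hours and killed at 22 months. Everything below is thus a difference between a drug and a diet, in old fasted mice, and does not say which of the 2 groups had moved from the state of control mice. The labels do not say whether each array was 1 mouse, so p-values measure the spread between samples. For gene differences that spread was pooled within groups over the 28 arrays of the 7 groups other than control. Besides MET and CR8 these were long-term calorie restriction, glipizide, glipizide plus metformin, rosiglitazone and soy isoflavones.

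Metformin is a biguanide that lowers blood glucose, chiefly through less glucose output by the liver; it acts on mitochondrial respiration and on the energy sensor AMPK. Calorie restriction lowers insulin, and with it the transcription factor SREBP-1c, encoded by Srebf1, which drives the genes of fatty acid synthesis. The related SREBP-2 drives cholesterol synthesis and responds to sterol levels. During a fast the liver burns fatty acids under the control of PPAR alpha, makes glucose and breaks down amino acids. Both treatments are thus known to act on the same metabolic programmes.

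Each array gave 1 scaled fluorescence intensity per probe set. Column medians were 155.5 ± 8.32 intensity units in MET and 157.7 ± 7.36 in CR8 (SD, n = 4), a difference smaller than the spread between arrays (two-sided exact permutation p = 0.657; 4 against 4 arrays allow none below 0.0286). Arrays correlated between 0.950 and 0.973 within CR8, between 0.955 and 0.973 within MET and between 0.948 and 0.962 across the groups. In all, 4 of the 8 arrays stood apart, in different ways. CR8 1 and CR8 2 carried skeletal muscle transcripts: Acta1, skeletal muscle actin, was at 4562, 5386, 192 and 13 in CR8 1 to 4 and at 24.2, 12.8, 18.4 and 14.5 in MET 1 to 4, and Mb, myoglobin, at 560.5, 692, 35.5 and 49.6 in CR8 and 11.4, 12.9, 10.7 and 11.6 in MET. CR8 3 and MET 3 had low signals of the array's own control probe sets for beta-actin and 18S rRNA, while those for Gapdh stood close to the other arrays. The 5′ Gapdh control read 16833 in CR8 3, within the 15315 to 17151 of the other CR8 arrays. In MET 3 it read 19686, against 20318 to 23351 on the other MET arrays. The 5′ probe set of beta-actin read 1121 in CR8 3 against 3656 to 4494 on the other CR8 arrays, and 3026 in MET 3 against 6586 to 9143 on the other MET arrays, and the 18S rRNA probe set read 173.5 and 231 on these 2 arrays against 450.5 to 584 on the other 6. The ratio of 3′ to 5′ signal of the Gapdh controls, a sign of RNA integrity, was 0.768 to 0.854 in MET and 0.848 to 0.992 in CR8. For beta-actin it was 1.31 to 1.80 in MET and 1.49 to 2.35 in CR8, with MET 3 and CR8 3 the lowest of their groups. The part of these ratios in the results was not tested.

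Values are compared as log2(intensity + 27), with the standard error of the limma fit, and a gene is called where the adjusted p is under 0.05 over all 7511 probe sets tested. Limma called 255 probe sets, 3.40% of those tested, with 121 higher in MET (1.61%) and 134 lower (1.78%). Scaling all arrays to equal medians gave 99 higher and 72 lower, so the balance of the 2 directions depends on the scaling. Among 5655 genes with 1 probe set each, 78 were called higher (1.38%) and 99 lower (1.75%), 177 in all (3.13%). The 4 MET and 4 CR8 arrays did not overlap in 142 of these 177, and in 544 of all genes (9.62%), 204 with MET higher (3.61%) and 340 with MET lower (6.01%). Differences were small: the median size among called genes was 0.49 on the log2 scale, and 6 of the 177 exceeded 1. The count rests on the arrays used. Without CR8 1 and CR8 2, which held muscle transcripts, 51 probe sets were called, without CR8 2 alone 83, without CR8 4 alone 98, without CR8 1 alone 156, without MET 4 alone 129, without CR8 3 alone 362, and in a fit to the 8 arrays alone 22, of which 18 were among the 255. Of the named genes, Tiam1, Pdia6, Habp2, Hhex, Ube2e1, Pdcd4, Dnajb9, Prkd3 and Timm8a1 were called in that last fit. Of the 80 called genes named here, 15 kept their call without CR8 1 and 2: Apoa4, Iqgap2, Aqp1, Srebf1, Dnajc5, Hhex, Ube2e1, Pdcd4, Prkd3, Hnf4a, Ndufc1, Rxra, Mrpl24, Snhg1 and Timm8a1. At an unadjusted p under 0.05 lay 1020 of the 5655 genes (18.0%), 426 higher (7.53%) and 594 lower (10.5%), and 47.5% of genes had a difference above 0 and 52.5% below. Counts of that kind are given for the lists below as descriptions, beside these shares.

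**Figure D1:**
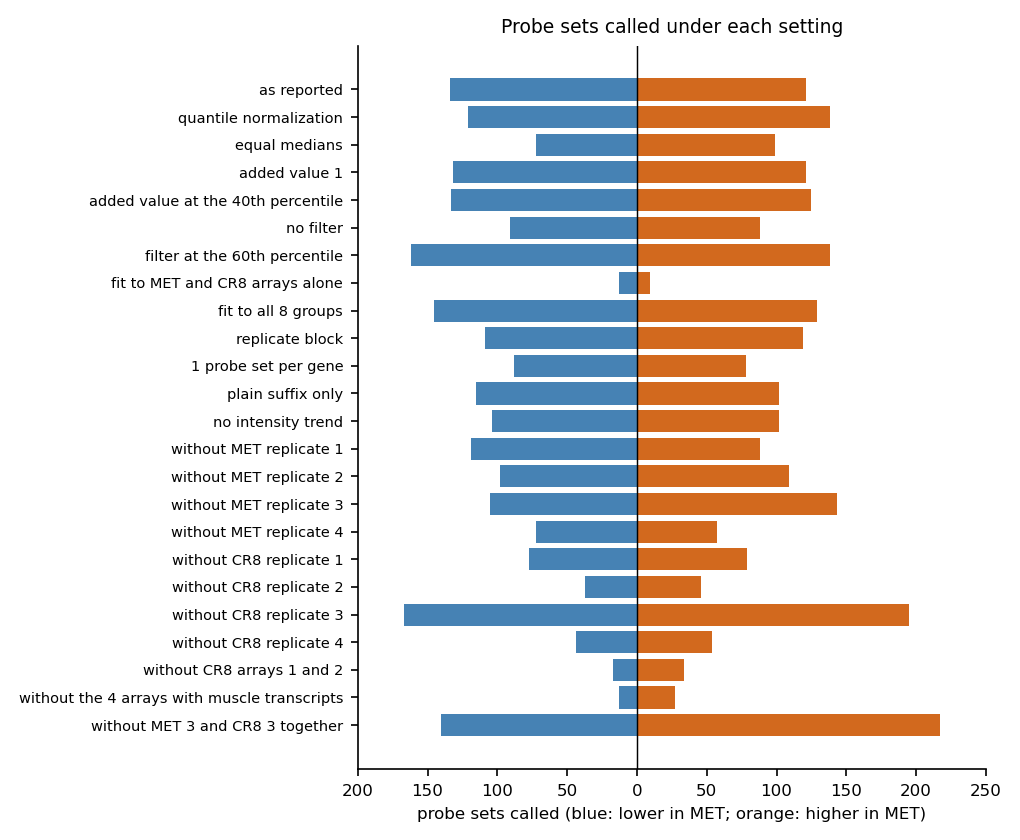
Probe sets called by limma under each setting (horizontal axis, number of probe sets; orange bars to the right, higher in MET; blue bars to the left, lower in MET). The count as reported is 255; the fit to MET and CR8 arrays alone gives 22, and leaving out CR8 1 and 2 gives 51.

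The largest difference among genes called higher in MET was that of Tiam1, an exchange factor that activates the GTPase Rac. Its intensities were 205, 185, 137 and 207 in MET and 59.3, 30.9, 20.6 and 36.7 in CR8, a difference of 1.74 ± 0.40 on the log2 scale (SE; adjusted p = 0.0167). CR8 arrays lay near 27, the value added before taking logs, so the fold is understated, and the call ended without MET 4 or without CR8 2 (largest adjusted p = 0.0583), and without CR8 1 and 2 together (0.0731). Apoa4, an apolipoprotein of triglyceride-rich particles made by gut and liver, was at 11302, 18519.5, 10484 and 16975 in MET and 7667, 7458, 6523 and 5843 in CR8. All 4 MET arrays exceeded all CR8 arrays, and the difference was 1.02 ± 0.19 (adjusted p = 0.00384). Pold2, a subunit of DNA polymerase delta, differed by 1.12 ± 0.24, with MET 2 at 239 close to the CR8 range of 178 to 232; its probe set is of a type that may read other transcripts. Gadd45a, a growth arrest and stress gene, was at 507, 451, 397 and 404 in MET and 162, 189, 308 and 219 in CR8, a difference of 0.95 ± 0.24, with an adjusted p of 0.291 without CR8 1 and 2. Lgals1, galectin-1, stood at 1679, 1735, 1208 and 1968 in MET and 938, 801, 999 and 893 in CR8 and differed by 0.82 ± 0.15. Iqgap2, a cytoskeletal scaffold abundant in liver, differed by 0.82 ± 0.16, and its call held without CR8 1 and 2 (adjusted p = 0.0131).

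Other genes in this direction were the kinase Hipk3 (0.96 ± 0.24), the water channel Aqp1 (0.81 ± 0.19), Folr2, a folate receptor of macrophages (0.66 ± 0.17), the plasma protease Habp2 (0.65 ± 0.14), Dnajc5, a co-chaperone of vesicles (0.64 ± 0.14), and Nt5e, which makes adenosine outside the cell (0.62 ± 0.16). In each the MET and CR8 arrays were apart. Habp2 was at 837, 757, 755 and 947 in MET and 509, 518, 523 and 500 in CR8, with a narrow band of CR8 values below all MET values. Leaving out CR8 1 and 2 ended the calls of Hipk3, Folr2, Habp2 and Nt5e (adjusted p 0.078, 0.25, 0.095 and 0.289) and kept those of Aqp1 and Dnajc5. Leaving out MET 3 and CR8 3 ended those of Aqp1, Folr2 and Dnajc5 (0.0748, 0.103 and 0.0634).

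The gene with the smallest adjusted p was Pdcd4, an inhibitor of translation initiation. It was lower in MET, at 1450, 1456, 1585 and 1495 in MET and 2383, 2779.5, 2018 and 2836 in CR8. The MET arrays lay within a narrow band below every CR8 array, and the difference was -0.72 ± 0.10 (limma, adjusted p = 0.000616). Hhex, a homeobox factor of liver development, was at 361, 705, 356 and 426 in MET and 1234, 987, 1036 and 954 in CR8. MET 2 was the highest of its group and still below the lowest CR8 array, and the difference was -1.19 ± 0.19 (adjusted p = 0.000923). Prkd3, protein kinase D3, was at 513, 532, 561 and 593 in MET and 771, 914, 971 and 892 in CR8, a difference of -0.66 ± 0.13 (adjusted p = 0.00493). Of 80 called genes named here and followed through every setting, 4 kept their call in all of them, Hhex, Pdcd4, Prkd3 and Timm8a1, and all 80 kept their direction. A further 16 of the 80, among them Srebf1, Apoa4, Fads1 and Ndufc1 described below, kept the call with each single array left out, and 60 lost it with at least 1 left out.

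Ube2e1, a ubiquitin-conjugating enzyme, was at 205, 175, 176 and 187 in MET and 400.4, 362, 348 and 332 in CR8 and differed by -0.87 ± 0.15; its probe set may read more than 1 transcript of a family. Elf3, an epithelial ETS factor, had the largest difference in this direction, -1.38 ± 0.38, with 70.4, 148, 207 and 92 in MET and 376, 404, 289 and 374 in CR8. That call ended in 13 of the alternative settings, including equal medians and each CR8 array but CR8 3 left out. Stk25, a kinase, was dim in MET and differed by -0.94 ± 0.26. The remaining genes of this direction were Epb41l4aos, a noncoding host transcript (-0.74 ± 0.15), Trmt1, a tRNA methyltransferase (-0.70 ± 0.15), Ptbp3, an RNA-binding splicing regulator (-0.69 ± 0.20), the zinc finger gene Zfp568 (-0.67 ± 0.17), Pa2g4, a growth-regulating RNA-binding protein (-0.63 ± 0.17), Padi2, an arginine deiminase (-0.61 ± 0.16), and the corepressor Phf12 (-0.60 ± 0.13). Without CR8 1 and 2 these 7 calls ended, at differences between -0.80 and -0.53, and the smallest adjusted p among them was 0.0731, for Zfp568.

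**Figure D2:**
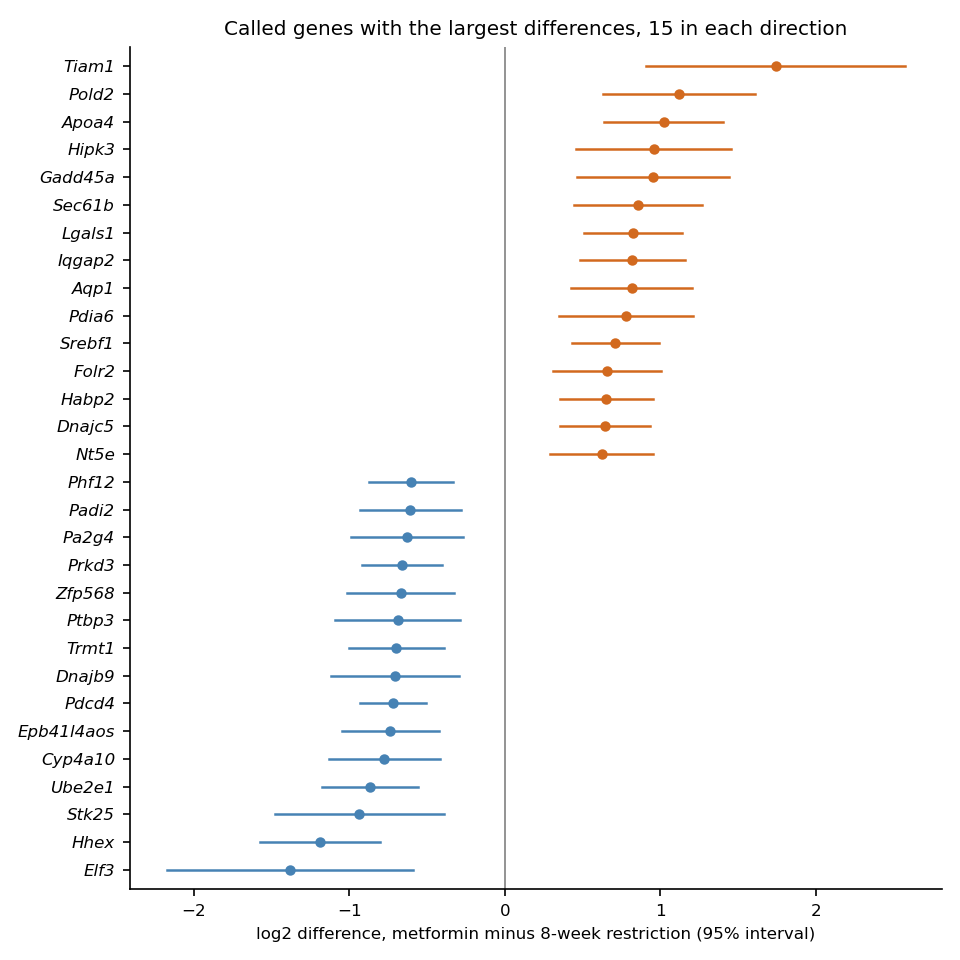
Log2 difference of MET minus CR8 for the 30 called genes with the largest differences among those whose arrays do not overlap (points) with 95% intervals from the limma fit (lines); orange genes, to the right of 0, are higher in MET and blue genes lower. Tiam1 has the largest difference, 1.74, and the widest intervals belong to Tiam1 and Elf3.

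Several genes of fatty acid synthesis were higher with metformin than with restriction. Of 17 measured lipogenesis genes, 5 were called higher and 0 lower, against 1.38% and 1.75% of all genes tested. These shares of all genes apply beside the counts of called genes in every list below. The median difference of the 17 was 0.43 against -0.014 over all genes tested. Srebf1, the master regulator, was at 4995, 3660.1, 3246 and 3708 in MET and 2856, 2266, 1983 and 2344 in CR8. Each MET array exceeded each CR8 array, and the difference was 0.71 ± 0.13 (adjusted p = 0.00491); it was 0.83 without CR8 1 and 2 (adjusted p = 0.0131). Fads1, a desaturase in the synthesis of polyunsaturated fatty acids, was at 9759.7, 7055, 4500 and 8173 in MET and 3556, 3293, 5178 and 3869 in CR8. MET 3 lay below CR8 3, the other arrays were apart, and the difference was 0.85 ± 0.18. Elovl5, which elongates the same fatty acids, was at 15008, 13859, 10442 and 13591 in MET and 8020.5, 8236, 12069.7 and 9135 in CR8 and differed by 0.50 ± 0.13, with the same overlap of MET 3 and CR8 3; without CR8 1 and 2 the difference was 0.32. Slc25a1, the mitochondrial carrier that exports citrate for fatty acid synthesis, was at 4443, 2995, 2946 and 3261 in MET and 2239, 2426, 3055 and 2339 in CR8, a difference of 0.43 ± 0.10, and a second probe set was called too. CR8 3 exceeded MET 2 and MET 3 for this gene. Pklr, the liver pyruvate kinase, was at 1137, 965, 704 and 939.7 in MET and 824, 562, 571 and 597 in CR8 and differed by 0.53 ± 0.14. Its probe set may read more than 1 transcript. The gene lies outside the rule for named genes and was chosen after its values were seen.

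Fasn, fatty acid synthase, was at 2432, 1165, 905 and 988 in MET and 1026, 971, 1056 and 982 in CR8, so that MET 1 stood far above and MET 2 a little above the CR8 range (difference 0.32 ± 0.22, adjusted p = 0.481); the difference was 0.0077 without MET 1. Acly, ATP citrate lyase, had 0.13 ± 0.13 (adjusted p = 0.679), which turned to -0.074 without MET 1. Scd1, the stearoyl-CoA desaturase, had 0.13 ± 0.16 (adjusted p = 0.722). The mean of the 17 genes relative to all 8 arrays was 0.66 in MET 1, 0.18 in MET 2, -0.24 in MET 3 and 0.14 in MET 4, against -0.21, -0.21, -0.085 and -0.24 in CR8 1 to 4. MET 3 was thus no higher than the CR8 arrays, and the median difference fell to 0.19 without MET 1. Without CR8 1 and 2 only Srebf1 kept its call, with a median of 0.30, and in the fit to the 8 arrays alone 0 of the 17 were called. Without MET 3 and CR8 3, the arrays with low beta-actin and 18S control signals, 8 of 17 were called higher with a median of 0.59. That setting was added when MET 3 was already known to be the lowest MET array for these genes and CR8 3 the highest CR8 array, so leaving them out widens the difference by construction and its counts support nothing. Of the other arrays of the fit, 3 from long-term restriction also read low for 18S rRNA (364.9, 228.6 and 230.1) and stayed in it.

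Sterol synthesis genes showed a similar median and more spread. Of 16 measured genes, 1 was called higher and 0 lower (1.38% and 1.75% of all genes), with a median of 0.42. Nsdhl, a sterol dehydrogenase late in the pathway, was at 1557, 852, 738 and 987 in MET and 564, 511, 758 and 395 in CR8 and differed by 0.84 ± 0.21 (adjusted p = 0.0247), with an adjusted p of 0.159 without CR8 1 and 2; its probe set may read a shared sequence. Fdps, which makes farnesyl diphosphate, was at 8608, 2859, 1329 and 4319.5 in MET and 876, 1408, 2924 and 922 in CR8. MET 1 stood far above MET 3, CR8 3 exceeded both MET 2 and MET 3, and the difference of 1.34 ± 0.45 was not past the threshold (adjusted p = 0.0912). Idi1, the isomerase of the step before, was at 2377, 910.1, 584 and 1479 in MET and 215, 535, 1802 and 344 in CR8, with CR8 3 the second highest of all 8 arrays (1.12 ± 0.50, adjusted p = 0.228). Sqle, squalene epoxidase, was at 829.5, 722, 519 and 840.4 in MET and 300.4, 359, 874 and 229.8 in CR8, highest in CR8 3 (0.84 ± 0.31, adjusted p = 0.134). Dhcr7, the last reductase of the pathway, had 0.92 ± 0.28 (adjusted p = 0.0635) and Lss, lanosterol synthase, 0.57 ± 0.18 (adjusted p = 0.078). Leaving out CR8 1 and 2 narrowed these differences, to 1.06 for Fdps, 0.54 for Idi1, 0.63 for Sqle, 0.72 for Dhcr7 and 0.36 for Lss (limma, adjusted p from 0.387 to 0.783). Without CR8 3 alone 5 of the 16 were called higher. CR8 3 was the highest CR8 array for this list (mean 0.24), so leaving it out widens the differences by construction. Without MET 3 and CR8 3 together, a choice that widens them in the same way, 7 were called higher. Fdps was then at 2.15 ± 0.42, Idi1 at 2.02 ± 0.46, Sqle at 1.37 ± 0.29 and Dhcr7 at 1.36 ± 0.28 (adjusted p between 0.00417 and 0.0132).

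**Figure D3:**
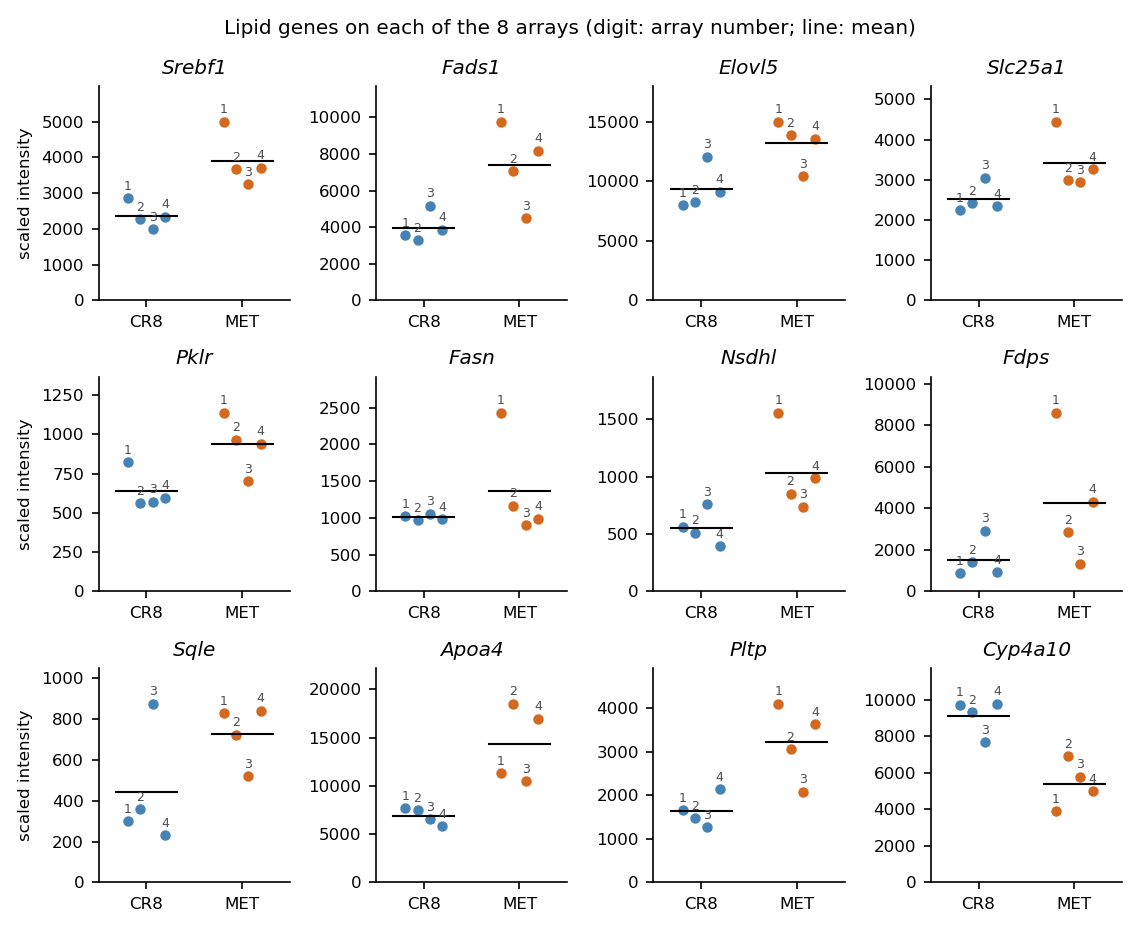
Scaled intensity of 12 lipid genes on each of the 8 arrays (vertical axes from 0, intensity units; blue points CR8, orange points MET; the digit is the array number and the line the group mean). For Srebf1 and Apoa4 all MET points lie above all CR8 points, whereas for Fads1, Elovl5, Fdps and Sqle the point of MET 3 lies below that of CR8 3.

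Because Slc25a1, Elovl5 and Nsdhl are targets of SREBP proteins that were called together, their promoter windows are shown, from 250 bases before to 50 after the start of transcription, from RefSeq on build GRCm38.p6. Capitals mark the E-box CACGTG, a palindrome to which basic helix-loop-helix factors bind, and the NF-Y box CCAAT on either strand, which reads ATTGG on the other; the 2 motifs do not overlap.
Slc25a1, chr16:17928170-17928469, minus strand: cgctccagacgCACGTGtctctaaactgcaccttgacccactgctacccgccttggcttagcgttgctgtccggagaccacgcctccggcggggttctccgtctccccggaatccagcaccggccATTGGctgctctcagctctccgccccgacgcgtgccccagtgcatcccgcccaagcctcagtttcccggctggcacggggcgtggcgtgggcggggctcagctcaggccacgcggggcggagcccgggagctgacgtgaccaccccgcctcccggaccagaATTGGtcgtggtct
Elovl5, chr9:77917115-77917414, plus strand: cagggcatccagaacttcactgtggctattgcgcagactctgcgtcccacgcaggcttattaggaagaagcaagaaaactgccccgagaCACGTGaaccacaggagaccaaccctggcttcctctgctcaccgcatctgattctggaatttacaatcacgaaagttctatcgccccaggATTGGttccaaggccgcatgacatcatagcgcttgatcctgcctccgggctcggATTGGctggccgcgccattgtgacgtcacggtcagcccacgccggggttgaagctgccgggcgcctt
Nsdhl, chrX:72918271-72918570, plus strand: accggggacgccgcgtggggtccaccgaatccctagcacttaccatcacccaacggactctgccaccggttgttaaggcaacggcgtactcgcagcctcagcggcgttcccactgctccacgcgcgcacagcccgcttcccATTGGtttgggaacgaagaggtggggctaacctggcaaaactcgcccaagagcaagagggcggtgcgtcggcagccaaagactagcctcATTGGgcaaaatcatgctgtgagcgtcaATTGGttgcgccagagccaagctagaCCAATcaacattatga
Slc25a1 and Elovl5 each held 1 E-box, at -239 and -161 bases from the start (first base of the motif, the start being 0), and each held 2 NF-Y boxes. Nsdhl held 4 NF-Y boxes, between -109 and 34 bases from the start, and no E-box. The 3 windows of Srebf1 and 2 of Pklr, the other called lipogenesis genes with a window, held no E-box either. Over 32851 windows of the same length, 7.15% held an E-box and 37.4% an NF-Y box. The core of the sterol regulatory element, TCACNCCAC, held by 1.24% of windows, was searched on both strands and had no match in these 3 windows or in those of Srebf1 and Pklr. The windows of the called endoplasmic reticulum genes named below were searched too. That of Dnajb9, lower in MET, held 1 E-box and 1 NF-Y box. That of Pdia6 held 2 NF-Y boxes and no E-box, and that of Sec61b neither. A match describes the letters only. The table held no window for Fads1.

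Proteins that carry lipid in plasma differed in both directions. Of 24 measured genes for apolipoproteins and lipoprotein handling, 2 were called higher (Apoa4, above, and Pltp) and 1 lower. Over all genes 1.38% were called higher and 1.75% lower. The list median was 0.094. Pltp, which transfers phospholipid between particles, was at 4095, 3057, 2084 and 3627 in MET and 1662, 1475, 1269.6 and 2136 in CR8 and differed by 0.95 ± 0.24; MET 3 lay just below CR8 4, and the call ended without CR8 1 and 2 (0.91, adjusted p = 0.173). Abca1, which exports cholesterol to apolipoprotein A-I, was lower, at 1270.4, 1086, 919 and 1098 in MET and 1541, 1621, 1403 and 1565 in CR8, a difference of -0.48 ± 0.11. A second, uncalled probe set of Abca1 had the opposite sign. Apoc1, an inhibitor of lipoprotein clearance, had 0.26 ± 0.08, just over the threshold (adjusted p = 0.0565) with its arrays apart.

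Among 31 genes of fatty acid oxidation and ketone synthesis, 0 were called higher and 1 lower (1.75% of all genes), with a median of 0.063. Cyp4a10, a fatty acid omega-hydroxylase and a known target of PPAR alpha, was at 3901, 6930.3, 5791 and 5014 in MET and 9736, 9309, 7667 and 9786 in CR8, lower in every MET array (-0.78 ± 0.17, adjusted p = 0.014); its probe set may read other Cyp4a genes, and the call ended without CR8 1 and 2 (adjusted p = 0.143). Cpt1a, which admits fatty acids to mitochondria, lay higher in all 4 MET arrays, at 10729, 11687, 11084 and 12367 in MET and 8174, 9001, 10103 and 8698 in CR8, without a call (0.35 ± 0.11, adjusted p = 0.0722). Acadl, long-chain acyl-CoA dehydrogenase, had -0.39 ± 0.12 (adjusted p = 0.069) and Hadh, a dehydrogenase of the same spiral, 0.26 ± 0.10 (adjusted p = 0.136). Ppara itself was at 4747, 4452, 1579 and 4053 in MET and 3329, 3541, 769 and 2797 in CR8, very low on CR8 3 and MET 3, the arrays with low control signals, with a difference of 0.59 ± 0.36 (adjusted p = 0.407) that ran from 0.089 without CR8 3 to 0.96 without MET 3. Ppargc1a was too dim to test, at 26.2 to 117.6 over the 8 arrays.

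The enzymes of glucose output, the process metformin is known to restrain, did not pass the test in this comparison. Pck1, phosphoenolpyruvate carboxykinase, was at 2421, 3043, 5161 and 3728 in MET and 3748, 4095, 4437 and 3956 in CR8, with MET 3 the highest and MET 1 the lowest of all arrays (-0.23 ± 0.15, adjusted p = 0.437). G6pc, glucose-6-phosphatase, was at 5513, 4902, 5176 and 3185 in MET and 4005, 4776, 2280.3 and 4853 in CR8 (0.27 ± 0.27, adjusted p = 0.663), and its difference was -0.036 without MET 3 and CR8 3. Of 15 genes of gluconeogenesis and glycogen, 2 were called higher (1.38% of all genes) and 0 lower, with a median of 0.017. They were Gbe1, the glycogen branching enzyme, at 652, 555, 465 and 595 in MET and 344, 445, 388 and 422 in CR8 (0.47 ± 0.12), and Hnf4a, a hepatocyte nuclear receptor that drives gluconeogenic genes, at 2023, 2120.5, 2964 and 2526 in MET and 2065, 1690, 1381 and 1343 in CR8 (0.57 ± 0.16). CR8 1 overlapped the MET values of Hnf4a. The call of Hnf4a held without CR8 1 and 2 (0.79, adjusted p = 0.0381) and that of Gbe1 ended (0.182), while without MET 3 and CR8 3 that of Hnf4a ended (0.208). Of 12 genes of glycolysis and the pentose phosphate pathway, 0 were called in limma and 4 had an unadjusted p under 0.05, all 4 higher (7.53% of all genes), with a median of 0.12.

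Enzymes that break down amino acids, together with the urea cycle, numbered 31, of which 0 were called higher and 2 lower (1.75% of all genes). The median was -0.12, and 23 of the 31 had a difference below 0, where 52.5% of all genes did. Aass, the first enzyme of lysine breakdown, was at 4961, 4472, 4144 and 5773 in MET and 7151, 8104, 6614 and 7216 in CR8. Every MET array was below every CR8 array (-0.59 ± 0.12, adjusted p = 0.00703), and without CR8 1 and 2 the difference was -0.52 (adjusted p = 0.0912). Glud1, glutamate dehydrogenase, was at 3485, 3119, 3820.1 and 4346 in MET and 4499.5, 4548, 5223 and 4752 in CR8 (-0.37 ± 0.10). Hal, histidine ammonia-lyase, was at 1895, 2081, 2757 and 2472 in MET and 3987, 3992, 2448 and 4621 in CR8, low in CR8 3 as in MET, with -0.68 ± 0.20 (adjusted p = 0.0565). Mmut, methylmalonyl-CoA mutase, had -0.36 ± 0.10 (adjusted p = 0.0558).

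Subunits of the respiratory chain, of which complex I is a reported target of metformin, gave 6 calls. Of 61 measured genes of oxidative phosphorylation, 5 were called higher and 1 lower (1.38% and 1.75% of all genes). The median was 0.074, 42 had a difference above 0, where 47.5% of all genes did, and the list means overlapped, at -0.076 to 0.11 in MET and -0.12 to -0.00032 in CR8. Ndufc1, of complex I, was at 3458, 3094, 2443 and 3666 in MET and 2064, 2365, 1997 and 2186 in CR8. All MET arrays exceeded all CR8 arrays (0.54 ± 0.11, adjusted p = 0.00878), and the call held without CR8 1 and 2 (0.58, adjusted p = 0.0475). Ndufb6 of the same complex was at 3159, 2643, 2217 and 3128 in MET and 1926, 2002, 2292 and 1925 in CR8 (0.44 ± 0.10), with MET 3 below CR8 3. Uqcr10, of complex III, was at 5279, 5993, 4856 and 5403 in MET and 4032, 4251, 4226 and 4464 in CR8 (0.34 ± 0.08), and Ndufv3 at 1269.9, 1411, 1005 and 1215 in MET and 903, 906, 1046 and 1007 in CR8 (0.33 ± 0.09). The other called genes were chosen after their values were seen: Atp5e, of ATP synthase (0.50 ± 0.13), and Cox6c, of cytochrome oxidase, which was lower (-0.32 ± 0.09), both from probe sets that may read more than 1 transcript; without CR8 1 and 2 the difference of Atp5e was 0.32. The median was 0.038 without CR8 3. Without CR8 1 and 2, 1 of the 61 was called, and without MET 3 and CR8 3, 8 were called higher and 1 lower. In the tricarboxylic acid cycle, 1 of 20 genes was called, Dld, a dehydrogenase subunit shared by several enzyme complexes, lower at 2078, 1926, 1732 and 2119 in MET and 2355, 2721, 2462 and 2232 in CR8 (-0.31 ± 0.09); the median of the list was 0.060.

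Genes for protein folding in the endoplasmic reticulum included calls in both directions. Of 38, 2 were called higher and 1 lower (1.38% and 1.75% of all genes), with a median of 0.035. Sec61b, a subunit of the channel through which proteins enter the organelle, was at 1281, 770.3, 629 and 783 in MET and 369, 453, 559 and 440.2 in CR8 (0.85 ± 0.20). Pdia6, a disulfide isomerase, was at 1182, 803, 997 and 941 in MET and 633, 505, 554 and 538 in CR8 (0.78 ± 0.21), and a second of its probe sets was called. Dnajb9, a co-chaperone induced by unfolded protein, was lower at 839, 702, 699.8 and 872 in MET and 1268, 1408, 1298 and 1162 in CR8 (-0.71 ± 0.20), with an uncalled second probe set of the opposite sign. Hspa5, the main chaperone of the organelle, had 0.23 ± 0.16 (adjusted p = 0.477) although its MET arrays lay above its CR8 arrays. None of these calls held without CR8 1 and 2 (adjusted p between 0.17 and 0.268), and the call of Dnajb9 ended with each array left out.

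Of 32 cytosolic and mitochondrial chaperones 0 were called higher and 1 lower, with a median of -0.065: Cct2, of the chaperonin that folds actin and tubulin, was at 261, 286, 247 and 173 in MET and 483, 356, 299.9 and 382 in CR8 (-0.60 ± 0.17), and Cct4 of the same ring had -0.30 ± 0.09 (adjusted p = 0.0699). Of 41 translation factors and tRNA synthetases, 1 was called, Eprs, the synthetase for glutamate and proline, lower at 393, 368, 469 and 384 in MET and 500.2, 581, 539 and 562 in CR8 (-0.42 ± 0.09), and the list median was -0.13. Limma called 0 of 26 ribosomal protein genes and 0 of 33 proteasome genes, where 3 and 6 had an unadjusted p under 0.05, as did 18.0% of all genes. Rps24 had the smallest adjusted p of the former (-0.24 ± 0.07, adjusted p = 0.0622), from a probe set of a type that may read other transcripts.

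Of 35 genes of the lysosome and autophagy, 3 were called higher (1.38% of all genes) and 0 lower. A difference above 0 was found in 28 (47.5% of all genes), and the median was 0.12. Their mean relative to the 8 arrays was between 0.042 and 0.086 in MET and between -0.11 and -0.038 in CR8. Such means did not overlap between the groups in 6 of 41 lists: this one, Kupffer cell, endothelial and clock genes, with MET higher, and amino acid catabolism and translation factors, with MET lower. Hexa, a hexosaminidase, was at 767, 821, 659 and 941 in MET and 554, 421, 586 and 508 in CR8 (0.60 ± 0.14). Atp6v0b, of the proton pump that acidifies the organelle, was at 1824, 1732, 1855 and 1636 in MET and 1177, 1307, 1609.6 and 1384 in CR8 (0.36 ± 0.09), and Gabarapl2, of the autophagosome membrane, at 2303, 2306, 2451 and 2386 in MET and 2056, 1965, 1869 and 1964 in CR8 (0.26 ± 0.06). Ctsd, cathepsin D, had 0.30 ± 0.09 (adjusted p = 0.0592) and the membrane protein Lamp2 -0.41 ± 0.12 (adjusted p = 0.0589). The 3 calls ended without CR8 1 and 2 (adjusted p 0.17, 0.292 and 0.0731), with Atp6v0b at 0.23, where the median was 0.051. Macrophages are rich in lysosomes, and their markers, given next, moved with the groups; their part in these values was not tested.

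Markers of Kupffer cells, the macrophages of the liver, had a higher summed signal in MET, with no single marker called. Of 17 measured, 0 were called in limma, 8 had an unadjusted p under 0.05 with MET higher (7.53% of all genes), and 14 had a difference above 0 (47.5% of all genes). The arrays of 6 were apart with MET higher (3.61% of all genes), and the median was 0.47. Their summed intensity was 8463 to 11314 in MET and 5438 to 7631 in CR8, which did not overlap, as in 6 of the 41 lists. The median was 0.57 without CR8 1 and 2. The markers named below as higher in MET nonetheless had smaller differences in that setting. They were 0.70 for Tyrobp, 1.02 for Lyz2, 0.88 for Cd5l, 0.94 for Clec4f, 0.72 for C1qa and 0.86 for Csf1r. Tyrobp, a myeloid signalling adaptor, was at 259.8, 262, 236 and 254 in MET and 26.9, 53.8, 180.5 and 117 in CR8 (1.39 ± 0.43, adjusted p = 0.0707). Lyz2, lysozyme, was at 489, 467, 702 and 583 in MET and 259, 73, 359 and 186 in CR8 (1.40 ± 0.44, adjusted p = 0.0766). Cd5l, secreted by tissue macrophages, was at 585, 618, 686 and 503 in MET and 264, 169, 307 and 316 in CR8 (1.13 ± 0.41, adjusted p = 0.125), and Clec4f, a lectin of Kupffer cells, at 859, 362, 701 and 624 in MET and 492, 149.8, 292 and 317 in CR8 (1.00 ± 0.48, adjusted p = 0.262). C1qa, of complement, had 0.87 ± 0.36 (adjusted p = 0.185) and Csf1r, the receptor that sustains macrophages, 0.88 ± 0.34 (adjusted p = 0.152). C1qb, also of complement, was among the 3 markers with a difference below 0, at -0.15 ± 0.15 (adjusted p = 0.657). It was not followed through the other settings or the outlier search below. In bulk liver, fewer cells of a type and less RNA per cell cannot be told apart. Endothelial markers had a median of 0.18 (0.067 without MET 3 and CR8 3) with 0 of 13 called. All 13 had a difference above 0 (47.5% of all genes), but the arrays of 0 of the 13 were apart. Their summed intensity was 4262 to 4870 in MET and 3610 to 4234 in CR8, also apart, though narrowly. Medians were, for hepatocyte markers, 0.040 with 0 of 12, stellate cell and fibroblast markers -0.16 with 0 of 14, erythroid markers -0.0085 with 0 of 6 and adipocyte markers -0.12 with 0 of 6. Members of these 5 lists at an unadjusted p under 0.05 in limma numbered 1, 5, 3, 0 and 0 in turn. Skeletal muscle markers had a median of -0.80 with 0 of 20 called in limma and 8 lower at an unadjusted p under 0.05, and summed to 17251 and 19486 in CR8 1 and 2 against 3920 to 4848 on the other 6 arrays.

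Antigen presentation genes lay beside these markers. Of 13 genes of class I antigen processing 2 were called higher (1.38% of all genes) and 0 lower. The median was 0.11, and 0.012 without CR8 1 and 2. H2-Q10, a secreted class I molecule made by hepatocytes, was at 25248, 27002, 24461 and 27646 in MET and 20263, 20260.5, 18460.1 and 21319 in CR8 (0.38 ± 0.08, adjusted p = 0.0102), with the groups apart. H2-Q4, another class I molecule, was at 10409.5, 8926, 7991 and 11932 in MET and 5552, 6198, 8568 and 6376 in CR8 (0.56 ± 0.15), with CR8 3 above MET 3. Both probe sets may read other class I genes, and both calls ended without CR8 1 and 2 (adjusted p 0.0692 and 0.35). Limma called 0 of 9 class II genes, and 0 had an unadjusted p under 0.05. Cd74, the invariant chain, was at 2431, 1711, 2296 and 1703 in MET and 1086, 692, 3002 and 1091 in CR8, highest of all in CR8 3 (0.67 ± 0.38, adjusted p = 0.369), and the list median of 0.57 was 0.24 without CR8 1 and 2. It called 0 of 27 interferon-induced genes, of which 5 had an unadjusted p under 0.05, all higher in MET (18.0% of all genes had such a p in either direction and 7.53% higher), with a median of 0.20, or 0.046 without CR8 1 and 2. Isg15, a ubiquitin-like modifier, was at 501, 450.5, 572 and 499.7 in MET and 345, 312, 484 and 312 in CR8 (0.47 ± 0.19, adjusted p = 0.193), Irf7, a regulator of the response, had 0.50 ± 0.19 (adjusted p = 0.159), and Ifit1 0.11 ± 0.35 (adjusted p = 0.911), a sign that turned with MET 3, MET 4 or CR8 1 left out. CR8 3 held the highest CR8 value of Isg15, Irf7 and Cd74. The summed intensity of the Kupffer cell list in CR8 3, 7631, was also the highest of its group; the part of macrophage content in these values was not tested.

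**Figure D4:**
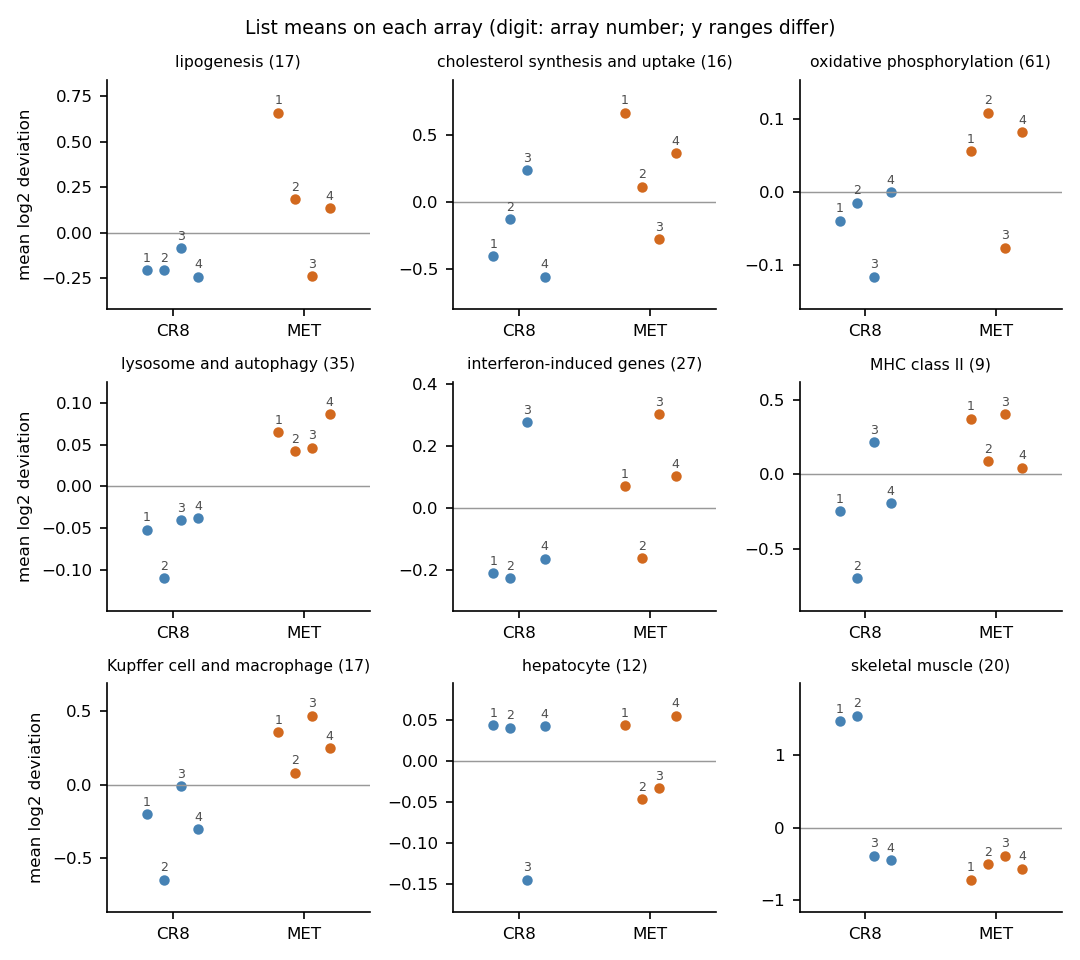
Mean over the genes of 9 lists on each array, as log2 deviation from the mean of the 8 arrays (vertical axes, whose ranges differ; blue CR8, orange MET; digits are array numbers and bracketed numbers the genes measured). Of these 9, Kupffer cell and lysosome means do not overlap between groups, MET 3 lies among the CR8 arrays for lipogenesis, and CR8 1 and 2 stand apart for skeletal muscle.

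Transcription factors and hormone axes of the hepatocyte gave few calls. Of 29 nuclear receptors and hepatocyte transcription factors, 2 were called higher (Rxra and Hnf4a) and 1 lower (Hhex), against 1.38% and 1.75% of all genes. Rxra, the shared partner of PPAR, LXR and other receptors, was at 1796, 1819.8, 1879.9 and 1675 in MET and 1548, 1364, 1168 and 1181 in CR8, apart between groups (0.45 ± 0.10, adjusted p = 0.0112), and its difference was 0.60 without CR8 1 and 2 (adjusted p = 0.00906). Cebpa, a factor of hepatocyte differentiation, was at 12790.4, 14097, 17456 and 12839 in MET and 9618, 10319, 12693 and 11619 in CR8, apart but just over the threshold (0.37 ± 0.10, adjusted p = 0.0507). Among 25 genes that depend on growth hormone or sex, Hhex alone was called, and the median was 0.0040. Limma called 0 of 27 genes of insulin and IGF signalling, with 1 higher and 3 lower at an unadjusted p under 0.05. Igf1, which calorie restriction is known to lower in plasma, was at 8333, 8377, 7935 and 7747 in MET and 8561, 9223, 6382 and 9068 in CR8 (-0.02 ± 0.11, adjusted p = 0.943), and its sign turned without CR8 2 or CR8 4. Igfbp1, an insulin-repressed binding protein, was at 539, 545, 355 and 261 in MET and 324, 524, 889 and 263 in CR8 (-0.13 ± 0.31, adjusted p = 0.879), and Igfbp2 had -0.37 ± 0.15 (adjusted p = 0.195). The probe sets of Igf1 and Igfbp1 may read more than 1 transcript. Igfbp3, the main plasma carrier of IGF, was at 255, 184, 282 and 210.3 in MET and 173, 40, 42.5 and 39.6 in CR8. All MET arrays exceeded all CR8 arrays, but CR8 1 stood far above the other CR8 arrays, and the difference of 1.53 ± 0.52 was not called (adjusted p = 0.0973).

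Of 23 glucocorticoid-responsive genes Gadd45a alone was called. Fkbp5, a co-chaperone of the receptor, had -0.19 ± 0.16 (adjusted p = 0.602). Serpina6, the plasma carrier of corticosterone, was higher in all MET arrays, at 18721, 16526, 18432 and 17459 in MET and 10399, 10590.3, 13465 and 13222 in CR8, without a call (0.58 ± 0.17, adjusted p = 0.0584). Of 17 clock genes, Cry2, a repressor of the clock, was called higher at 539.8, 556, 653 and 736 in MET and 490, 415, 364 and 384 in CR8 (0.56 ± 0.14), a call that ended without CR8 1 and 2 (adjusted p = 0.0559), while Dbp, a clock output factor, had 0.09 ± 0.12 (adjusted p = 0.773). Of 27 cell cycle and p53 genes Gadd45a alone was called. In the cytoskeleton list of 31, Cfl1, cofilin, was higher at 2839, 2597, 2761 and 2944 in MET and 1579.5, 1429.6, 2829.7 and 1585 in CR8 (0.63 ± 0.13), with CR8 3 inside the MET range, and Actn4, an actin crosslinker, was lower at 806, 857, 585 and 783 in MET and 1071, 1196, 862 and 1091 in CR8 (-0.47 ± 0.13). Both calls ended without CR8 1 and 2, at 0.39 for Cfl1 (adjusted p = 0.225) and -0.36 for Actn4 (adjusted p = 0.332), and that of Actn4 also ended with each of 6 single arrays left out.

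Detoxification and retinoid genes gave single calls, each lower in MET. Of 46 cytochrome P450s and conjugating enzymes, 0 were called higher and 1 lower (1.75% of all genes), and the median was -0.069. The arrays of 9 were apart with MET lower (6.01% of all genes) and of 2 with MET higher (3.61% of all genes). Mgst1, a glutathione transferase of membranes, was at 6222, 6774, 5831 and 6502 in MET and 7829, 8981, 8352 and 8383 in CR8 (-0.40 ± 0.09, adjusted p = 0.0128). Ephx2, an epoxide hydrolase, had -0.57 ± 0.17 (adjusted p = 0.0583), Cyp3a25 -0.29 ± 0.09 (adjusted p = 0.0738) and the xenobiotic receptor Ahr -0.54 ± 0.16 (adjusted p = 0.0547). Of 26 antioxidant genes 1 was called, Cat, catalase, lower at 5644, 5624, 5170.5 and 5108 in MET and 7654, 7434, 5969 and 7551 in CR8 (-0.40 ± 0.11), with an uncalled second probe set of the opposite sign, and Gclm, of glutathione synthesis, had -0.28 ± 0.08 (adjusted p = 0.0515). Of 13 genes of retinoid handling 1 was called, Adh4, an alcohol dehydrogenase that oxidises retinol, lower at 927, 816, 808 and 928 in MET and 1109, 1170.3, 1525 and 1123 in CR8 (-0.48 ± 0.13). Cyp26a1, which clears retinoic acid, was at 261, 217, 404 and 502 in MET and 489.8, 607, 1716 and 538 in CR8, with CR8 3 far above the rest (-1.08 ± 0.33, adjusted p = 0.0618). Of 47 acute phase and secreted plasma proteins 1 was called, Mug1, a protease inhibitor, lower at 6687, 6737, 10619.6 and 7637 in MET and 10689, 12422, 11701 and 9593 in CR8 (-0.51 ± 0.12) from a probe set that may read its relatives. The calls of Mgst1, Cat, Adh4 and Mug1 ended without CR8 1 and 2 (adjusted p 0.0829, 0.289, 0.0882 and 0.187).

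**Figure D5:**
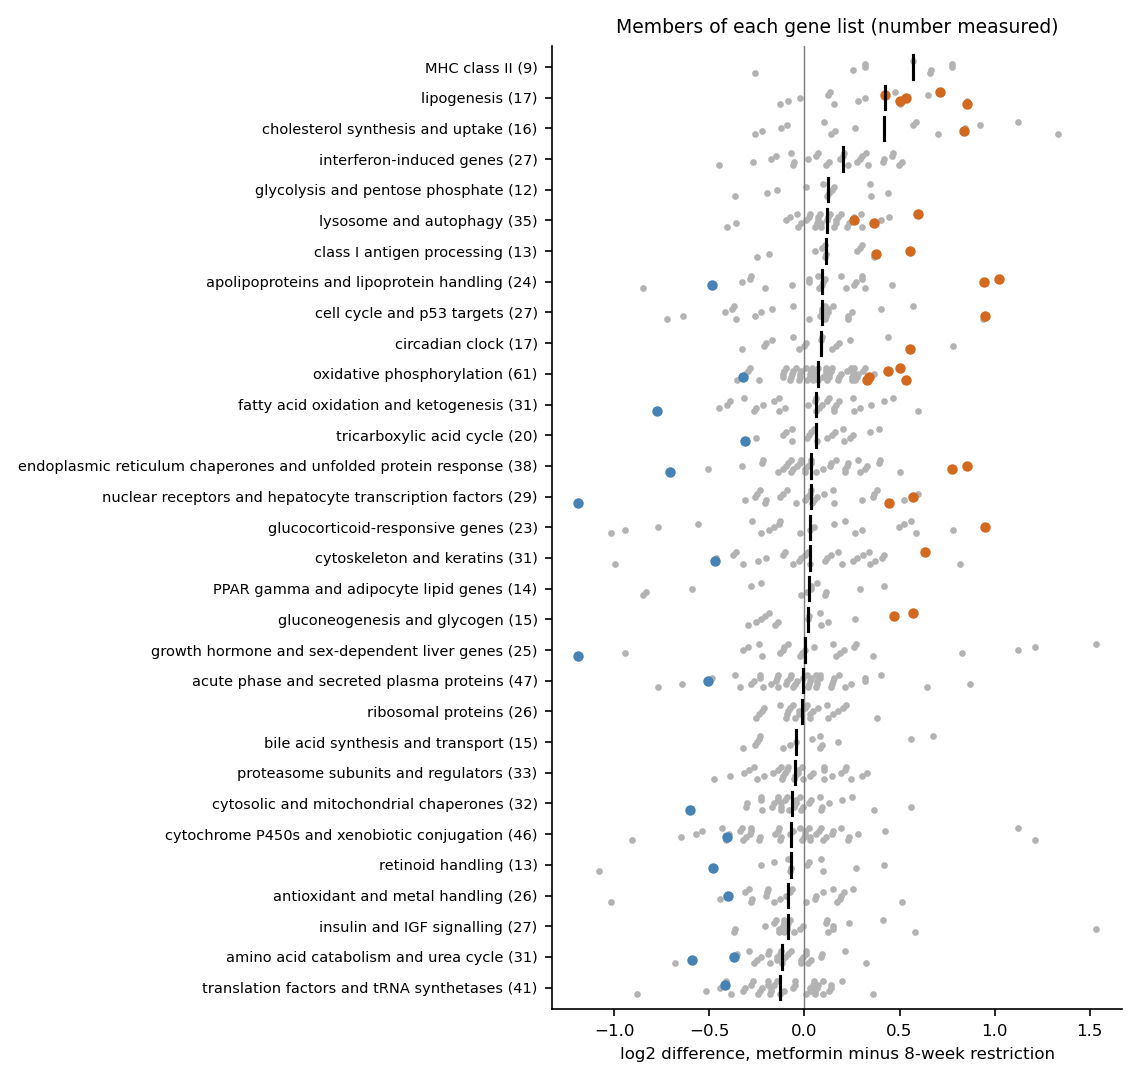
Log2 difference of MET minus CR8 for each measured gene of 31 pathway lists (small grey points, not called; orange, called higher in MET; blue, called lower), with the list median as a black bar and the number measured in brackets. Lists are ordered by median, from 0.57 for MHC class II to -0.13 for translation factors, and the 5 called lipogenesis genes all lie above 0.

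Limma called 0 of 15 genes of bile acid synthesis and transport, where Cyp7a1, the rate-limiting enzyme, was at 2069, 3179, 993 and 1530.2 in MET and 1566, 1381, 1093 and 874 in CR8 (0.56 ± 0.39, adjusted p = 0.479), and 0 of 14 PPAR gamma and adipocyte lipid genes; 2 and 1 of these had an unadjusted p under 0.05. In all, 41 of the 177 called genes belonged to a pathway list, out of 775 list genes tested. Over all genes tested, 3.13% were called.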

How the data were processed

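Liver RNA had been measured on 32 Affymetrix MG-U74Av2 arrays. The deposited table held 1 linear intensity per probe set and array, scaled by the authors: each column's mean, trimmed by 2% at each end, lay between 500.38 and 500.47. Nothing used here names the scanner software, background correction, detection calls or scan dates. Of 12488 probe sets, 66 controls were left out of tests; 10833 of the rest had 1 gene symbol in the platform annotation.

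Log2(intensity + 27) values were fitted with limma 3.58.1 in R 4.3.3 (lmFit, eBayes with intensity trend) over the 28 arrays of the 7 groups other than the control group, contrast MET minus CR8, with 21 residual and 4.588 prior degrees of freedom. The added 27, the 20th percentile of all intensities, understates the change of dim genes. The filter kept 7511 probe sets with a mean above 93.7, the 40th percentile. The Benjamini-Hochberg threshold was 0.05 over all of them. A gene was represented by its brightest probe set. Errors of intensities are SDs and those of differences SEs.

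Named genes were the 15 largest differences in each direction among calls whose arrays were apart, the 4 members of each pathway list with the smallest p, a fixed set of metabolic genes and cell type markers. Members and lists were chosen with earlier results of these data known, so their counts are descriptions. The number of arrays limits precision. The fit was tested on simulated data. Alternatives were other scalings, added values, filters, fits and probe sets, a replicate block and arrays left out; leaving out 4 arrays with muscle transcripts, or MET 3 and CR8 3, was chosen after seeing the data, the latter with the lipid gene values of both arrays known.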

Additional observations from a re-analysis of the deposited data

Results flagged for a closer look

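Among 354 sets of 4 arrays (the named genes and the list means, in MET and in CR8), 19 held an array whose gap to the next exceeded Dixon's 95% critical share of the range. That is close to the 5% of sets that chance gives. The sets are not independent, as named genes also enter list means, so the 19 are listed as descriptions. Of the 19, 10 concerned CR8 3. That array was high for Cfl1 (2829.7 against 1429.6 to 1584.9 on the other CR8 arrays), Adh4 (1525.2), Dhcr7 (304.6), Irf7 (692.3) and Cyp26a1 (1715.9), and low for Cat (5969.3) and Cyp3a25 (8634.7). Its list means stood at 0.277 for interferon-induced genes, 0.266 for class I antigen processing and -0.144 for hepatocyte markers, as log2 deviations from the 8 arrays. The low beta-actin and 18S control signals of this array were given above; their part in these values was not tested.

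CR8 1 was high for Pklr (823.5) and Igfbp3 (173.3 against 39.6 to 42.5), and CR8 4 for Padi2 (275.7) and the ribosomal protein mean (0.121). MET 1 was high for Fasn (2431.8 against 904.9 to 1164.9) and H2-Aa (764.2). MET 3 was low for Hadh (6981.9) and high for the clock gene mean (0.183), and MET 2 was high for the cell cycle mean (0.123).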

How the results depend on the processing

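Of 255 probe sets called (121 higher and 134 lower in MET), a fit to the MET and CR8 arrays alone called 22 (9 and 13), 1 probe set per gene 166 (78 and 88), equal medians 171 (99 and 72), and leaving out CR8 1 and 2 together 51 (34 and 17). Leaving out the 4 arrays of these 7 groups with muscle transcripts left 40 (27 and 13), and leaving out MET 3 and CR8 3, 357 (217 and 140), a setting chosen when MET 3 was known to be the lowest MET array, and CR8 3 the highest CR8 array, for lipid genes. With single arrays left out the count ran from 83 (46 and 37, without CR8 2) to 362 (195 and 167, without CR8 3); it was 156 (79 and 77) without CR8 1, 98 (54 and 44) without CR8 4 and 129 (57 and 72) without MET 4. Fewer arrays, or fewer probe sets tested, enter most of these fits; beyond that the cause was not tested. Of 80 named genes that were called, 9 were called in the fit to 8 arrays, 15 without CR8 1 and 2 and 62 without MET 3 and CR8 3. Replicate numbers did not pair the arrays: same-numbered MET and CR8 arrays correlated between -0.165 and 0.0477 in their deviations, 0 of 4 best with their own number, and the replicate block called 228 (119 and 109). Signs turned for 5 uncalled genes: Acly (-0.074 without MET 1, against at most 0.26 with another array left out), G6pc (-0.036 without MET 3 and CR8 3), Igf1 (0.032 without CR8 2, 0.024 without CR8 4, at lowest -0.14 without CR8 3, 0.089 without CR8 1 and 2 or the 4 muscle arrays), Igfbp1 (0.065 without MET 4, 0.18 without CR8 3, at lowest -0.37 without CR8 4, 0.24 without MET 3 and CR8 3) and Ifit1 (-0.12 without MET 3, -0.086 without MET 4, -0.081 without CR8 1, at most 0.60 without MET 2, -0.30 without CR8 1 and 2 or the muscle arrays). Signal near the added value limits what dim genes can show.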

Other observations

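Genes of RNA processing, grouped by symbol after the calls had been seen, leaned lower in MET. The first group held 83 genes for splicing factors, RNA helicases and other RNA-binding proteins (symbols starting with Srsf, Hnrnp, Ddx, Dhx, Clk, Sf3, Snrp or Rbm). Of these, 0 were called higher and 5 lower (1.38% and 1.75% of all genes), and 54 had a difference below 0 (52.5% of all genes). Their median was -0.16 against -0.014 over all genes tested. The called genes were Clk1 (-0.25 ± 0.06), a kinase of splicing factors, Ddx5 (-0.38 ± 0.11), an RNA helicase, Hnrnpdl (-0.37 ± 0.09) and Hnrnph1 (-0.40 ± 0.10), which bind nascent transcripts, and Srsf11 (-0.49 ± 0.10), a splicing factor. Noncoding transcripts, several of which host small nucleolar RNAs in their introns, were called lower in 4 of 5 cases (1.75% of all genes). This group was made in part by naming transcripts already called. The 4 were Epb41l4aos (-0.74 ± 0.15), Gas5 (-0.36 ± 0.10), Snhg1 (-0.63 ± 0.14) and Tug1 (-0.47 ± 0.10) (limma, adjusted p under the threshold). The probe sets of Hnrnpdl and Gas5 may read more than 1 transcript. Of 59 genes with Zfp symbols, 0 were called higher and 4 lower (1.75% of all genes), with a median of -0.15. The 4 were Zfp131 (-0.59 ± 0.15), Zfp207 (-0.45 ± 0.11), Zfp568 (-0.67 ± 0.17) and Zfp644 (-0.31 ± 0.08). Without CR8 1 and 2 the call of Snhg1 held (-0.79, adjusted p = 0.0201) and those of the other genes named in this paragraph ended, with adjusted p from 0.0619 for Srsf11 to 0.267 for Zfp131. Since these groups were formed from the calls, their counts support nothing beyond the values.

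Mitochondrial ribosomal proteins gave calls in both directions, 3 higher and 1 lower of 57 (1.38% and 1.75% of all genes), with a median of 0.042. Mrpl39 (0.36 ± 0.10), Mrps24 (0.26 ± 0.07) and Mrps28 (0.47 ± 0.11) were higher and Mrpl24 (-0.32 ± 0.07) lower. Of 16 import genes, Timm8b (0.35 ± 0.10) was called higher and Timm8a1 (-0.53 ± 0.09) lower. Timm8a1 kept its call in every setting tried, with a difference between -0.58 and -0.49, and Mrpl24 kept it without CR8 1 and 2 (-0.35, adjusted p = 0.0405), where the calls of the 4 higher genes ended (adjusted p from 0.158 to 0.568), with Mrps24 at 0.12. The spread between arrays was wider with the drug: the median SD of log2 values within a group was 0.214 in MET and 0.180 in CR8, and 3327 of 5655 genes varied more in MET. This was not tested.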
